A study of Mus musculus with 18 samples.

Results

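Potassium channel genes were followed in cultured mouse cortical neurons as every protein-coding gene whose symbol starts with Kcn. The count table held 96 such rows among 37310 genes, and these carried 94 symbols because Kcnb2 and Kcnh8 each stood under a pair of Ensembl identifiers. Of the 96, 76 had enough reads to be tested. The other 20 were at or near 0, with totals of 1 to 103 counts over 12 libraries: Kcna10, Kcng4, Kcnv2, Kcnq1, Kcne1, Kcne2, Kcne3, Kcne4, Kcnmb1, Kcnmb3, Kcnn4, Kcnj1, Kcnj5, Kcnj8, Kcnj13, Kcnj15, Kcnk7, Kcnk15, Kcnk16 and Kcnk18.

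RNA was sequenced in 4 groups of 3 libraries: Fmr1 knockout (KO) neurons in JQ1, wild type (WT) neurons in JQ1, KO neurons in vehicle (DMSO) and WT neurons in DMSO. Fmr1 encodes FMRP, an RNA-binding protein whose loss causes fragile X syndrome, and JQ1 displaces BET bromodomain proteins from acetylated chromatin. All neurons were in Neurobasal medium with B27, and at day 7 in culture they received drug or vehicle for 24 h. The KO allele, the strain, the age and sex of the animals, and whether replicates came from separate cultures were not stated in the labels. P-values measure only the spread between these libraries, which may be technical where replicates shared a culture. Neurons treated with THZ1 were not analysed here.

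Potassium channels set the resting potential, repolarise the action potential and limit how often a neuron can fire. Voltage-gated alpha subunits form tetramers that open on depolarisation, silent alpha subunits join and alter Kv2 channels, and auxiliary subunits change gating or surface delivery. Calcium-activated channels produce afterhyperpolarisations, inward rectifiers and leak channels hold the membrane near rest, and several of these channels or their mRNAs have been described as targets or binding partners of FMRP.

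The libraries held 21643592 to 134110850 gene counts, of which potassium channel genes took 0.151% to 0.196%. Levels are given as CPM (read counts scaled to a common library total) with TMM-scaled library sizes. Fmr1 stood at 26.0, 27.6 and 34.6 CPM in KO libraries against 145, 154 and 135 CPM in WT libraries in JQ1, and at 21.5, 22.2 and 29.4 CPM against 124, 119 and 119 CPM in DMSO. The groups did not overlap, and reads over Fmr1 remained in KO libraries. Both KO replicate 3 libraries stood apart in sex-linked genes, with Xist at 4.34 CPM in JQ1 and 4.29 CPM in DMSO against at least 230.5 CPM in the other 10. KO replicate 3 was therefore no repeat of the RNA of KO replicates 1 and 2. Summed over each marker list, the lowest and highest libraries stood at 5459 and 6826 CPM for 5 general neuronal genes, 306 and 808 CPM for 8 astrocyte genes, 7.00 and 13.2 CPM for 8 microglial genes and 1.92 and 5.80 CPM for 7 endothelial and pericyte genes. In such bulk RNA, fewer cells of a type and less RNA per cell cannot be told apart.

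Per kilobase of exon, high levels in WT neurons in DMSO were found for the A-type subunit Kcnd2 (11.3 ± 0.702 CPM per kb, SD, n = 3), the silent subunit Kcnv1 (11.1 ± 0.543 CPM per kb) and the inward rectifier Kcnj4 (11.0 ± 0.239 CPM per kb). Their libraries overlapped, so the order among these 3 was not resolved. Kcnh3 (10.4 ± 0.385 CPM per kb), Kcnq5 (10.3 ± 0.295 CPM per kb), the leak channel Kcnk1 (10.2 ± 0.360 CPM per kb) and the silent subunit Kcnf1 (10.1 ± 0.0447 CPM per kb) followed, also with overlapping libraries. An exon length was at hand for 93 of the 96 rows. Kcnj4 stood at 15.2 ± 1.27 CPM per kb in KO in JQ1, 11.1 ± 0.483 CPM per kb in WT in JQ1 and 14.1 ± 1.26 CPM per kb in KO in DMSO (SD, n = 3 each).

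**Figure D1:**
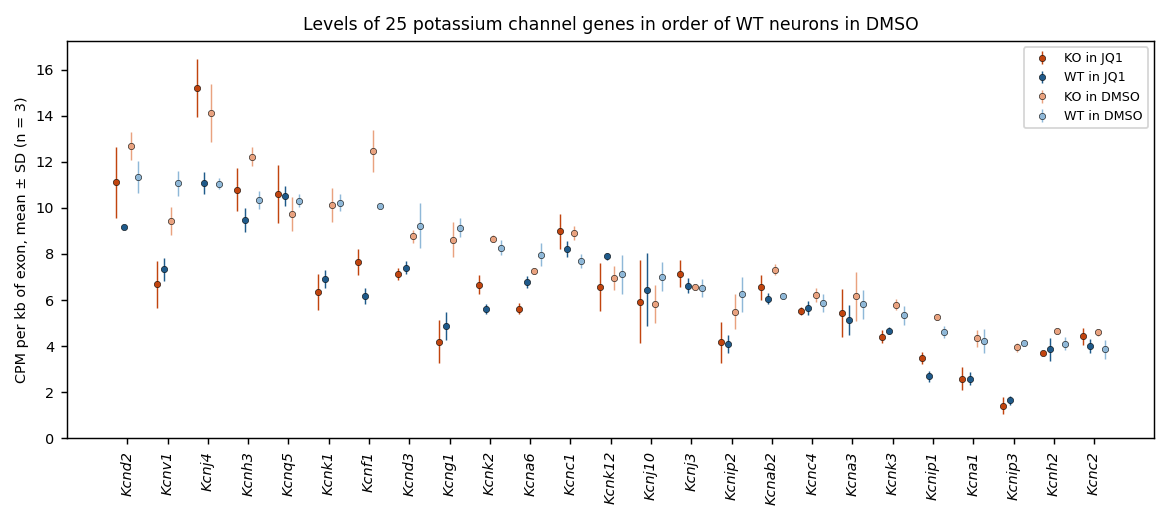
Levels of 25 potassium channel genes in CPM per kb of exon, ordered by WT neurons in DMSO, with points for the means and bars for the SD of 3 libraries of KO in JQ1, WT in JQ1, KO in DMSO and WT in DMSO. From Kcnd2, at 11.3 CPM per kb in WT neurons in DMSO, the genes follow one another closely.

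After JQ1, potassium channel transcripts were mostly lower in both genotypes. In KO neurons 44 of 76 genes fell and 4 rose at an adjusted p under 0.05 (edgeR quasi-likelihood F test, Benjamini-Hochberg over 15433 genes), and in WT neurons 37 fell and 3 rose. As a share of genes tested, 57.9% fell in KO against 29.4% of all genes, and 48.7% fell in WT against 29.3% of all genes. The share that rose was 5.26% in KO and 3.95% in WT, against 27.7% and 25.9% of all genes. Calls in either direction covered 63.2% in KO and 52.6% in WT, against 57.1% and 55.1% of all genes, so the count of calls was near the background and their direction was not. The median log2 change was -0.37 in KO and -0.32 in WT, while that of all genes was 0.0014 in KO and -0.0043 in WT. With libraries scaled to ERCC spike-in RNA, added in amounts that the labels do not state, 10 fell and 1 rose in KO, against 8.51% and 1.33% of all genes under that scaling, and 50 fell and 0 rose in WT, against 37.7% and 0.259% of all genes. As shares of the potassium channel genes, 13.2% fell in KO and 65.8% in WT. That scaling moved the median of all genes by 0.063 in KO and -0.631 in WT on the log2 scale.

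**Figure D2:**
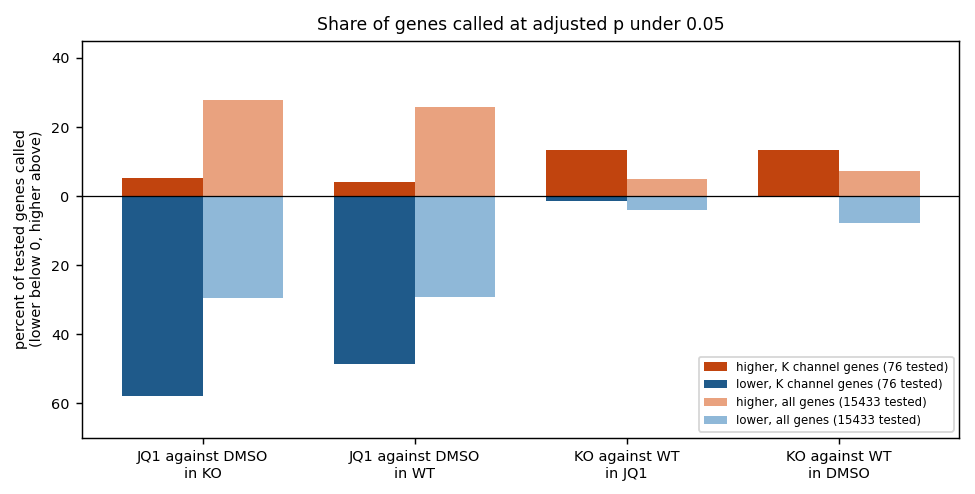
Percent of potassium channel genes (76 tested) and of all genes (15433 tested) called higher or lower at an adjusted p under 0.05, for JQ1 against DMSO and for KO against WT. For JQ1 the lower bar of potassium channel genes reaches 57.9% in KO and 48.7% in WT, above the 29.4% and 29.3% of all genes.

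Falls past 2-fold were found for 10 of 76 genes in KO and 12 of 76 in WT, where 10.3% and 10.4% of all genes were called as far down. Past 2-fold upwards, 0 genes were called in KO and 1 in WT, against 0.888% and 0.953% of all genes. The libraries of JQ1 and DMSO did not overlap for 45 genes in KO and 44 in WT, against 60.7% and 62.6% of all genes. The 37 genes that fell in WT also fell in KO, and the 3 that rose in WT, Kcnrg among them, also rose in KO. Another 8 were called in KO and not in WT: Kcnh7 higher, and Kcna7, Kcnc4, Kcng3, Kcnh2, Kcnh3, Kcnab2 and Kcnk13 lower. Of these, Kcnh2 kept its call when any 1 library was left out, and the other 7 each lost it without 3 to 5 single libraries, with adjusted p up to 0.182. Those libraries included all 6 KO ones, and also WT_DMSO replicate 2 for Kcnc4 and WT_DMSO replicate 1 and WT_JQ1 replicate 1 for Kcnk13. DESeq2 did not call Kcna7 or Kcnk13 in KO.

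Cell type markers also moved with JQ1. General neuronal markers summed to 5762 to 6203 CPM in KO in JQ1 against 6455 to 6826 CPM in KO in DMSO, and to 5459 to 5568 CPM in WT in JQ1 against 5809 to 6246 CPM in WT in DMSO, so the sums were lower in JQ1 without overlap. Of these 5 genes, Rbfox3 (log2 -0.33 in KO and -0.25 in WT), Stmn2 (-0.15 and -0.20) and Tubb3 (-0.27 and -0.19) fell in each genotype. Snap25 (0.17 in KO and 0.10 in WT) and Syt1 (0.12 and 0.14) moved up, with 2 called in KO and 1 in WT. Stmn2 and Tubb3 stood at 2093 CPM or more in every library and the others at 749 CPM or less, so the sum mainly follows Stmn2 and Tubb3. Microglial markers summed to 7.77 to 9.92 CPM in KO in JQ1 against 10.2 to 13.2 CPM in KO in DMSO, and to 7.00 to 8.29 CPM in WT in JQ1 against 9.96 to 10.7 CPM in WT in DMSO, with 5 of 7 tested lower in KO and 3 of 7 in WT. Endothelial and pericyte markers summed to 2.11 to 4.70 CPM in KO in JQ1 against 5.23 to 5.80 CPM in KO in DMSO, and to 1.92 to 2.21 CPM in WT in JQ1 against 5.11 to 5.68 CPM in WT in DMSO, with 2 of 5 tested lower in KO and 3 of 5 in WT. The part of these markers in the fall of potassium channel genes was not tested.

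Among voltage-gated alpha subunits of the Kv1 to Kv4 families, 8 of 17 tested rows fell and 1 rose in KO, and 6 fell and 1 rose in WT (median log2 change -0.19 in each). The share that fell was 47.1% in KO and 35.3% in WT, against 29.4% and 29.3% of all genes. Calls either way covered 52.9% in KO and 41.2% in WT, against 57.1% and 55.1% of all genes. Kv3 subunits let neurons repolarise fast and fire at high rates. Of these, Kcnc1 had log2 changes of 0.01 in KO and 0.10 in WT and Kcnc2 of -0.06 and 0.06, none of them called. Kcnc4 was called lower in KO (log2 -0.17) and not called in WT (log2 -0.06).

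Kcna5, a Kv1 delayed rectifier, had the largest fall of any potassium channel gene in both genotypes. It was low throughout, at 0.237, 0.291 and 0.299 CPM in KO in JQ1 against 1.40, 1.25 and 1.09 CPM in KO in DMSO, and at 0.173, 0.108 and 0.420 CPM in WT in JQ1 against 1.03, 0.842 and 1.13 CPM in WT in DMSO. No JQ1 library reached the lowest DMSO library. The change was -2.15 log2 units (SE 0.282, adjusted p = 1.81e-05) in KO and -2.58 log2 units (SE 0.325, adjusted p = 1.38e-05) in WT. Kcna1, an axonal Kv1 subunit that opens near threshold, fell by 0.75 in KO and 0.69 in WT on the log2 scale (adjusted p = 0.000141 and 0.000337). Kcnd3, a Kv4 subunit of the A-type current, fell by 0.30 and 0.32 (adjusted p = 0.00122 and 0.0008), and Kcna6 by 0.37 and 0.23 (adjusted p = 4.97e-05 and 0.00225).

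The silent subunits, which form no channel alone, fell in 7 of 8 tested genes in KO and 6 of 8 in WT, with a median log2 change of -0.73 in each. These falls were 87.5% in KO and 75% in WT, against 29.4% and 29.3% of all genes. Kcnf1 was 38.6, 37.7 and 33.5 CPM in KO in JQ1 against 64.4, 59.4 and 55.5 CPM in KO in DMSO. In WT it was 30.7, 30.3 and 27.7 CPM in JQ1 against 48.5, 48.5 and 48.1 CPM in DMSO. The groups did not overlap in either genotype, with a change of -0.70 log2 units (SE 0.0643, adjusted p = 6.41e-07) in KO and -0.70 log2 units (SE 0.0659, adjusted p = 9.31e-07) in WT. Kcng1 fell by 1.03 in KO and 0.89 in WT (adjusted p = 1.12e-05 and 4.67e-05), Kcns1 by 0.75 and 0.94 (adjusted p = 1.14e-06 and 2.22e-07) and Kcnv1 by 0.49 and 0.59 (adjusted p = 0.000378 and 9.3e-05), all on the log2 scale. Kcns3 fell by 0.81 in KO and 1.18 in WT (adjusted p = 0.00227 and 0.000377) at under 2 CPM in DMSO. Kcng2 was called in neither genotype.

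Promoters of the 3 genes below are shown because they belong to the largest fall in JQ1 (Kcna5), to a silent subunit that changed with both drug and genotype (Kcnf1), and to a gene that was not called with JQ1 and was higher in KO (Kcnj4). Each is the 250 bases before the RefSeq start of the gene on GRCm38.p6, on the minus strand of chr6:126535556-126535805, chr12:17176889-17177138 and chr15:79505242-79505491, with GC boxes in capitals.
Kcna5: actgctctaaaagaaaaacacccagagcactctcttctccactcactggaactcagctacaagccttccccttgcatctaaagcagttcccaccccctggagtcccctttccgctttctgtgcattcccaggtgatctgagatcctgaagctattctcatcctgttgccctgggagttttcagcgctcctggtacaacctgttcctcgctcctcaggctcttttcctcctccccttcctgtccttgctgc
Kcnf1: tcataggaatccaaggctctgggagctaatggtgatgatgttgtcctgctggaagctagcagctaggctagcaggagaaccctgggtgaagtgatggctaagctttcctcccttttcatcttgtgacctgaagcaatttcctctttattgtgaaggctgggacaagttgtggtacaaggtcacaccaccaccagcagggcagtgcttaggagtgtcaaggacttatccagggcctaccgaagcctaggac
Kcnj4: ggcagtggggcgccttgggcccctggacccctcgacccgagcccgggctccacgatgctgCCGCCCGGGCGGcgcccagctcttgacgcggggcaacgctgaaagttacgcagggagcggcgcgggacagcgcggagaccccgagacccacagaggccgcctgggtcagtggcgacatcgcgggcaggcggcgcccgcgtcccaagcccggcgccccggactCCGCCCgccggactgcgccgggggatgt

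The windows differ in base makeup, with 3 CG dinucleotides for Kcna5, 1 for Kcnf1 and 35 for Kcnj4. RefSeq promoters were matched for 69 of the 94 symbols, giving 94 windows. On both strands, 4 short motifs were searched, none of which contains another. The GC box (GGGCGG) was in 44.7% of potassium channel windows against 32.7% of all 32851 windows, the TATA box (TATAAA) in 3.19% against 12.4%, the E box (CACGTG) in 6.38% against 6.02% and the cAMP response element (TGACGTCA) in 0% against 1.55%. Taking the window with most CG dinucleotides for each gene, the median was 12 for the 25 genes that fell in JQ1 in WT and 16 for the 26 that were not called. It was 10 for all 69 matched potassium channel genes and 6 for all 27025 genes. The 25 and 26 had enough reads to be tested, while the 69 and 27025 were taken whatever their reads, so the sets are unlike. The values describe the letters in these windows, and no factor binding was measured.

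In the Kv7 family of M current subunits, 1 of 4 tested genes fell and 1 rose in each genotype. That is 25% each way, where 29.4% of all genes fell and 27.7% rose in KO, and 29.3% and 25.9% in WT. Kcnq5 had log2 changes of 0.12 in KO and 0.03 in WT and Kcnq3 of -0.42 and -0.35, none of them called.

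In the ether-a-go-go families, 6 of 9 tested rows fell and 1 rose in KO, and 4 fell in WT (median log2 change -0.47 in KO and -0.31 in WT). Falls made up 66.7% in KO and 44.4% in WT, against 29.4% and 29.3% of all genes. Kcnh1, the EAG channel, fell by 0.54 in KO and 0.76 in WT on the log2 scale (adjusted p = 0.00033 and 2.98e-05). The ELK gene Kcnh4 was 3.62, 2.78 and 3.20 CPM in KO in JQ1 against 5.65, 6.10 and 6.83 CPM in KO in DMSO, and 2.94, 3.16 and 1.91 CPM in WT in JQ1 against 6.33, 6.19 and 5.86 CPM in WT in DMSO. The groups did not overlap, and it fell by 0.97 and 1.11 (adjusted p = 3.96e-05 and 1.62e-05). Both rows of Kcnh8, another ELK gene, fell, by 0.93 and 1.19 in KO and by 1.25 and 0.97 in WT, at about 1 CPM in DMSO. The rows share a symbol and may not be separate evidence, though the counts given here include both. Kcnh7, an ERG gene, had a log2 change of 0.25 in KO (adjusted p = 0.0243) and of 0.14 in WT (adjusted p = 0.197).

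Auxiliary subunits of voltage-gated channels fell in 8 of 9 tested genes in KO and 7 of 9 in WT, with 1 rising in each, and the median log2 change was -0.60 in KO and -0.79 in WT. As shares, 88.9% fell in KO and 77.8% in WT, against 29.4% and 29.3% of all genes. All 4 KChIP genes, whose calcium-sensing products assemble with Kv4 channels, fell in both genotypes. Kcnip3, which also encodes the transcriptional repressor DREAM, was 3.64, 6.26 and 4.97 CPM in KO in JQ1 against 13.1, 14.2 and 14.6 CPM in KO in DMSO. In WT it was 5.87, 6.55 and 5.18 CPM in JQ1 against 14.5, 14.9 and 14.7 CPM in DMSO. The JQ1 libraries lay below the DMSO libraries without overlap, with a change of -1.46 log2 units (SE 0.136, adjusted p = 7.95e-07) in KO and -1.29 log2 units (SE 0.136, adjusted p = 2.63e-06) in WT. Kcnip1 fell by 0.60 in KO and 0.79 in WT and Kcnip4 by 0.43 and 0.61, on the log2 scale. Kcnip2 fell by 0.39 in KO and 0.60 in WT, and its call in KO was lost without KO_DMSO replicate 2 or 3 or KO_JQ1 replicate 1 or 3 (adjusted p up to 0.122).

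Of the Kv beta subunits, which bind Kv1 channels, Kcnab1 and Kcnab3 fell in both genotypes. Kcnab1 was 1.27, 2.90 and 3.32 CPM in KO in JQ1 against 4.60, 6.87 and 6.35 CPM in KO in DMSO, and 2.69, 3.28 and 2.57 CPM in WT in JQ1 against 8.26, 8.84 and 9.16 CPM in WT in DMSO. The WT groups were far apart and the KO groups were separated by a smaller gap, with a change of -1.24 log2 units (SE 0.227, adjusted p = 0.000346) in KO and -1.58 log2 units (SE 0.221, adjusted p = 3.69e-05) in WT. Kcnab3 fell by 0.94 and 1.09 on the log2 scale (adjusted p = 1.56e-05 and 5.63e-06). Kcne1l, of the minK family, fell by 1.63 in KO and 1.92 in WT (adjusted p = 0.000353 and 8.55e-05). Kcnrg, named as a potassium channel regulator, was the auxiliary gene that rose, by 0.66 in KO and 0.72 in WT (adjusted p = 0.00377 and 0.00227). With spike-in scaling its rise was called in neither genotype (log2 0.76 in KO and 0.15 in WT).

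**Figure D3:**
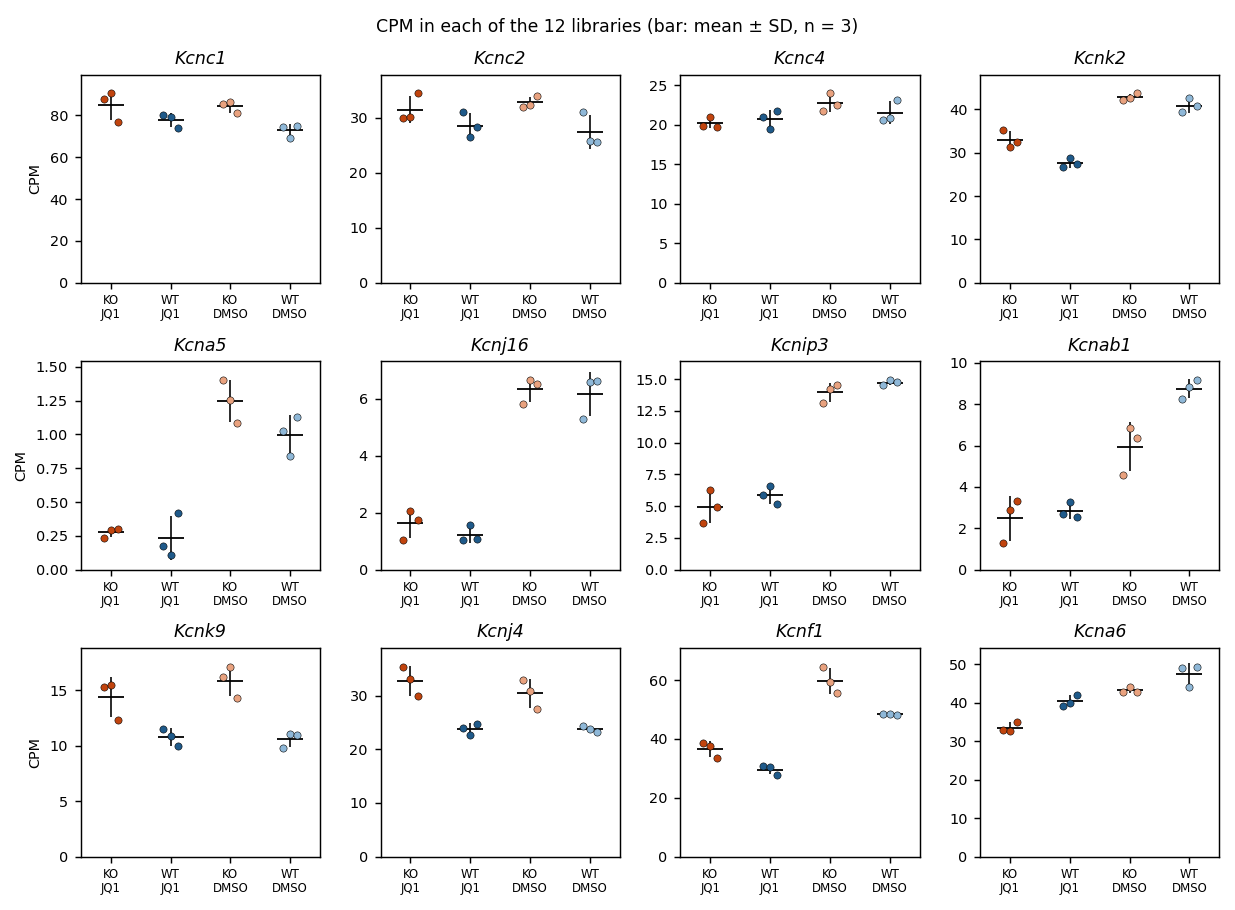
CPM of 12 potassium channel genes in every library, with columns for KO in JQ1, WT in JQ1, KO in DMSO and WT in DMSO and bars for each group's mean ± SD. Kcnk2, Kcna5, Kcnj16, Kcnip3 and Kcnab1 are lower in all 6 JQ1 libraries than in the 6 DMSO libraries, and Kcnk9 and Kcnj4 separate by genotype.

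Among calcium- and sodium-activated channels, 4 of 9 tested genes fell in each genotype (median log2 change -0.24 in KO and -0.30 in WT). That is 44.4%, where 29.4% of all genes fell in KO and 29.3% in WT. The BK beta subunit Kcnmb2 fell by 0.66 in KO and 0.69 in WT on the log2 scale (adjusted p = 3.67e-05 and 3.22e-05). Kcnn1 and Kcnn2, SK channels behind the medium afterhyperpolarisation, fell by 0.77 and 0.54 in KO and by 0.63 and 0.51 in WT. Kcnt1, the sodium-activated Slack channel, fell by 0.51 in KO and 0.43 in WT (adjusted p = 0.00509 and 0.0163). Its call in WT was lost without WT_DMSO replicate 1, WT_DMSO replicate 2 or WT_JQ1 replicate 2 (adjusted p up to 0.0613).

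Inward rectifiers fell in 4 of 10 tested genes in each genotype (median log2 change -0.14 in KO and -0.21 in WT). This 40% compares with 29.4% of all genes lower in KO and 29.3% in WT. No inward rectifier rose, so calls either way were also 40%, against 57.1% and 55.1% of all genes. Kcnj16, which pairs with Kcnj10 in glial channels, had the largest change. It was 1.06, 2.07 and 1.73 CPM in KO in JQ1 against 5.80, 6.64 and 6.52 CPM in KO in DMSO, and 1.04, 1.56 and 1.07 CPM in WT in JQ1 against 5.27, 6.58 and 6.63 CPM in WT in DMSO. Every JQ1 library was below every DMSO library, with a change of -1.91 log2 units (SE 0.187, adjusted p = 1.26e-06) in KO and -2.23 log2 units (SE 0.196, adjusted p = 5.09e-07) in WT. Kcnj10 itself was not called, at 20.9, 39.4 and 35.9 CPM in KO in JQ1 against 26.4, 33.8 and 34.5 CPM in KO in DMSO (log2 0.03) and 35.4, 43.1 and 26.0 CPM in WT in JQ1 against 34.3, 40.9 and 38.8 CPM in WT in DMSO (log2 -0.10), with overlapping groups. Of 8 astrocyte markers, 4 fell in KO and 5 in WT, their sum being 306 to 501 CPM in KO in JQ1 against 472 to 637 CPM in KO in DMSO, and 491 to 660 CPM in WT in JQ1 against 676 to 808 CPM in WT in DMSO. Of 8 oligodendrocyte lineage markers, 3 fell in each genotype and 1 rose in WT. These summed to 148 to 201 CPM in KO in JQ1 against 161 to 213 CPM in KO in DMSO. In WT the sums were 179 to 187 CPM in JQ1 against 146 to 208 CPM in DMSO, so the groups overlapped in each genotype. The part of astrocyte and oligodendrocyte lineage markers in the fall of Kcnj16 was not tested.

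Kcnj11, the pore of ATP-sensitive channels, fell by 0.99 in KO and 0.80 in WT on the log2 scale (adjusted p = 9.2e-07 and 1.1e-05). The G protein-gated subunits Kcnj6 and Kcnj9 fell by 0.64 and 0.33 in KO and by 0.53 and 0.48 in WT. The call for Kcnj6 in WT was lost without WT_DMSO replicate 3 (adjusted p = 0.0851). That for Kcnj9 in KO was lost without KO_DMSO replicate 1, KO_DMSO replicate 2 or KO_JQ1 replicate 3 (adjusted p up to 0.147). Kcnj3, their usual partner, had log2 changes of 0.11 in KO and 0.02 in WT and was not called. The strong rectifiers Kcnj2 and Kcnj4 were not called either.

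Leak channels of the K2P family fell in 6 of 10 tested genes in KO and 5 of 10 in WT (median log2 change -0.39 in KO and -0.38 in WT). Shares lower were 60% in KO and 50% in WT, against 29.4% and 29.3% of all genes. Kcnk4, the mechanosensitive TRAAK channel, fell by 1.16 in KO and 1.33 in WT on the log2 scale (adjusted p = 0.000793 and 0.000254). Its relative Kcnk2, the TREK channel, was 35.2, 31.3 and 32.4 CPM in KO in JQ1 against 42.1, 42.7 and 43.7 CPM in KO in DMSO. In WT it was 26.8, 28.9 and 27.4 CPM in JQ1 against 39.4, 42.6 and 40.8 CPM in DMSO. The groups did not overlap, with falls of 0.38 in KO and 0.56 in WT (adjusted p = 4.32e-05 and 1.62e-06). Kcnk1 fell by 0.67 and 0.58 (adjusted p = 1.42e-05 and 6.83e-05). Kcnk6 fell by 1.40 and 1.11 at under 1 CPM. Its call in WT was lost without WT_JQ1 replicate 2 (adjusted p = 0.0625) and also under DESeq2.

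**Figure D4:**
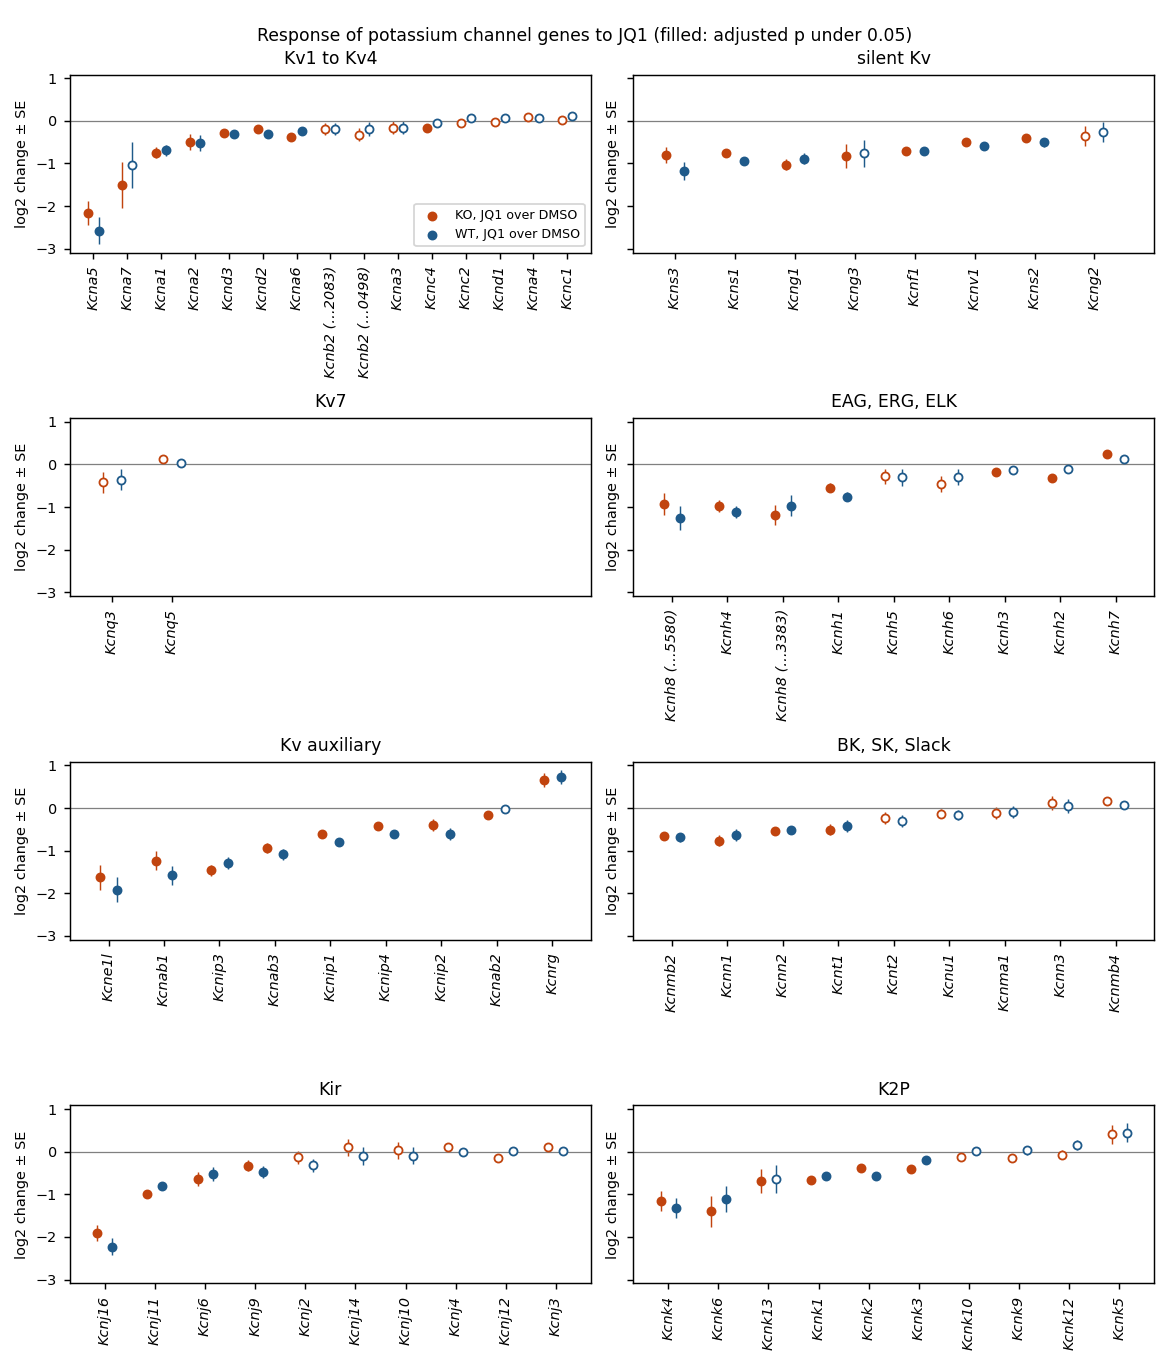
Log2 change in JQ1 against DMSO for 72 of the 76 tested potassium channel rows, by subfamily, with KO left of WT for each gene, bars for standard errors, and filled points for an adjusted p under 0.05. Most points lie below 0 in both genotypes, with Kcna5 and Kcnj16 lowest.

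JQ1 responses of the 76 genes ran in parallel in the genotypes. Their signs matched for 66 of 76 genes, Pearson's r across genes was 0.962 (genes are not independent replicates), and the median absolute gap between the KO and WT log2 changes was 0.11. The difference of the responses, KO minus WT, was called for 0 of 76 genes and 0 of 15433 genes (edgeR, background 0%), and DESeq2 also called 0 of the 76. At an unadjusted p under 0.05 it reached 1 of 76 genes, Kcnk2 (0.18 on the log2 scale), against 2.3% of all genes. The largest absolute gap was 0.47. These tests do not show that the responses were equal.

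Partner proteins of potassium channels that carry other symbols gave 20 tested genes of 24, of which 11 fell and 3 rose in KO and 10 fell and 3 rose in WT (median log2 change -0.16 in each). Of all genes, 29.4% fell and 27.7% rose in KO, and 29.3% fell and 25.9% rose in WT. The secreted LGI proteins, ligands of ADAM22 family receptors that associate with Kv1 channels, fell most. Lgi1 was 24.6, 24.0 and 24.0 CPM in KO in JQ1 against 43.7, 46.1 and 44.8 CPM in KO in DMSO, and 20.5, 22.1 and 25.5 CPM in WT in JQ1 against 45.2, 44.7 and 47.5 CPM in WT in DMSO. The groups were separate, with log2 changes of -0.89 in KO and -1.03 in WT (adjusted p = 8.32e-08 and 3.11e-08). Lgi2 fell by 1.24 in each genotype, and Lgi3 by 1.18 in KO and 1.06 in WT. Dpp6, a Kv4 auxiliary protein, fell by 0.36 in KO and 0.32 in WT (adjusted p = 3.99e-05 and 0.000142).

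In KO against WT neurons, potassium channel genes were mostly higher where they were called, by small amounts. In JQ1, 10 of 76 were higher and 1 lower in KO, and in DMSO 10 were higher and 0 lower. In JQ1 this was 14.5% of the genes against 8.97% of all genes, with 13.2% against 4.85% higher and 1.32% against 4.13% lower. In DMSO it was 13.2% against 15% of all genes, with 13.2% against 7.21% higher and 0% against 7.76% lower. At an unadjusted p under 0.05, 17 were higher and 4 lower in DMSO (22.4% and 5.26%, against 14.3% and 17.3% of all genes). DESeq2 called 11 higher and 0 lower in DMSO (14.5% and 0%, against 9.11% and 7.99% of all genes). The median log2 change was 0.07 in both conditions, against -0.0045 for all genes in JQ1 and -0.0146 in DMSO. KO and WT libraries did not overlap for 22 genes in JQ1 and 23 in DMSO, against 27% and 37.6% of all genes.

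These directions depended on the scaling. With spike-in scaling, 0 of 76 genes were called in JQ1, where 0.117% of all genes were lower and 0.0324% higher. In DMSO 47 were lower and 0 higher, and that 61.8% lower was below the 77.7% of all genes (0.0259% of all genes were higher). The 10 genes called higher in the reported fit had log2 changes of -0.21 (Kcnk9) or lower. Those of them named below were not called lower under that scaling (adjusted p 0.0648 to 0.512). That scaling moved the median of all genes by -0.115 in JQ1 and -0.809 in DMSO on the log2 scale. ERCC counts in KO_DMSO replicates 1 to 3 were 187296, 107995 and 129889, beside 53564043, 64000804 and 53174615 gene counts. In WT_DMSO they were 39278, 45982 and 60614, beside 33118140, 36859618 and 35006469. The ERCC share thus also varied between replicates of 1 group. By subfamily, the 10 genes higher in DMSO were 3 of 17 Kv1 to Kv4 rows, 3 of 10 inward rectifiers, and 1 each of 8 silent subunits, 9 ether-a-go-go rows, 9 auxiliary subunits and 10 leak channels. In that order the shares were 17.6%, 30%, 12.5%, 11.1%, 11.1% and 10%, against 7.21% of all genes. The values below are relative to the bulk of genes in the same libraries.

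The 4 genes called higher in KO in both conditions were the leak channel Kcnk9, the inward rectifiers Kcnj2 and Kcnj4, and the silent subunit Kcnf1. Kcnk9, a TASK channel that contributes to the resting potential, was 15.3, 15.5 and 12.3 CPM in KO against 11.5, 10.8 and 9.94 CPM in WT in JQ1, and 16.2, 17.1 and 14.3 CPM in KO against 9.76, 11.1 and 10.9 CPM in WT in DMSO. Its KO libraries lay above its WT libraries in each condition, with a difference of 0.41 log2 units (SE 0.0979, adjusted p = 0.0199) in JQ1 and 0.58 log2 units (SE 0.0984, adjusted p = 0.00281) in DMSO. Kcnj4, a strong rectifier found at synapses, was 35.3, 33.1 and 29.9 CPM in KO against 24.1, 22.7 and 24.8 CPM in WT in JQ1, and 32.9, 30.9 and 27.5 CPM in KO against 24.3, 23.7 and 23.3 CPM in WT in DMSO. The genotypes did not overlap, with a difference of 0.46 log2 units (SE 0.0734, adjusted p = 0.00284) in JQ1 and 0.36 log2 units (SE 0.0736, adjusted p = 0.0078) in DMSO. Kcnf1 was higher by 0.30 log2 units (SE 0.0659, adjusted p = 0.013) in JQ1 and 0.30 log2 units (SE 0.0639, adjusted p = 0.00834) in DMSO.

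Kcnj2 was 20.9, 16.1 and 15.7 CPM in KO against 12.8, 11.5 and 7.80 CPM in WT in JQ1, and 21.3, 18.2 and 18.3 CPM in KO against 15.3, 14.2 and 11.9 CPM in WT in DMSO. The libraries did not overlap but were spread within groups, with a difference of 0.67 log2 units (SE 0.15, adjusted p = 0.0152) in JQ1 and 0.48 log2 units (SE 0.148, adjusted p = 0.0435) in DMSO. In DMSO its call was lost without KO_DMSO replicate 1 or 2, any 1 WT_DMSO library or WT_JQ1 replicate 2 (adjusted p up to 0.149), and in JQ1 without KO_JQ1 replicate 1 (adjusted p = 0.0611). In JQ1, Kcnf1 lost its call without KO_JQ1 replicate 1 or 2 (adjusted p up to 0.0556), and Kcnk9 without KO_JQ1 replicate 1 or 2 or WT_JQ1 replicate 2 or 3 (adjusted p up to 0.0803). Kcnj4 kept its call in both conditions when any 1 library was left out, as did Kcnk9 and Kcnf1 in DMSO.

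In DMSO, another 6 genes were higher in KO, among them the Kv3 subunits Kcnc1 and Kcnc2, the ELK channel Kcnh3, the beta subunit Kcnab2 and the KATP pore Kcnj11. Kcnc1 was 85.4, 86.5 and 80.9 CPM in KO against 74.3, 69.3 and 74.7 CPM in WT, a difference of 0.21 log2 units (SE 0.0596, adjusted p = 0.0303). Kcnc2 was 32.1, 32.4 and 34.0 CPM in KO against 31.1, 25.8 and 25.6 CPM in WT, a difference of 0.26 log2 units (SE 0.0821, adjusted p = 0.0484). The genotypes did not overlap for either gene, though for Kcnc2 the highest WT library came close to the lowest KO library. Log2 changes of Kcnc1 and Kcnc2 in JQ1 were 0.13 and 0.14, neither of them called. Kcnj11 was higher by 0.33 (adjusted p = 0.0278), Kcnab2 by 0.25 (adjusted p = 0.0153) and Kcnh3 by 0.24 (adjusted p = 0.0199) on the log2 scale in DMSO. In JQ1 their log2 changes were 0.14, 0.12 and 0.19, none of them called.

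Each of these 5 calls was lost when some single DMSO library was left out. Kcnab2 lost it without KO_DMSO replicate 1 or WT_DMSO replicate 2 (adjusted p up to 0.0546), and Kcnh3 without KO_DMSO replicate 2 or WT_DMSO replicate 2 or 3 (up to 0.0634). Kcnj11 lost it without KO_DMSO replicate 1 or any 1 WT_DMSO library (up to 0.0905), and Kcnc1 without KO_DMSO replicate 1 or 2 or WT_DMSO replicate 1 or 2 (up to 0.121). Kcnc2 lost it without any 1 KO_DMSO library, WT_DMSO replicate 2 or 3, KO_JQ1 replicate 2 or WT_JQ1 replicate 3 (up to 0.171).

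In JQ1, another 6 genes were higher in KO and Kcna6 was lower. Kcna6, a Kv1 subunit, was 32.8, 32.5 and 35.1 CPM in KO against 39.2, 39.9 and 42.1 CPM in WT in JQ1, without overlap (log2 -0.27, SE 0.0547, adjusted p = 0.00926). In DMSO it was 42.6, 44.1 and 42.9 CPM in KO against 49.0, 43.9 and 49.2 CPM in WT, with overlap and no call (log2 -0.13, adjusted p = 0.107). The genes that were higher were Kcnj9 (log2 0.48, adjusted p = 0.0369), Kcnh1 (0.46, adjusted p = 0.0154), Kcnip1 (0.39, adjusted p = 0.00769), Kcns2 (0.37, adjusted p = 0.0473), Kcnd2 (0.27, adjusted p = 0.0471) and Kcnk2 (0.25, adjusted p = 0.016). In DMSO these genes were also higher in KO without a call, by 0.33, 0.25, 0.20, 0.27, 0.16 and 0.07 in the same order (adjusted p 0.0778 to 0.445). The difference of the responses was called for none of them. Kcna6 and Kcnip1 kept their calls when any 1 library was left out. Kcnk2 lost its call without KO_JQ1 replicate 1 or WT_JQ1 replicate 1 and Kcnh1 without KO_JQ1 replicate 1 or WT_JQ1 replicate 2 (adjusted p up to 0.0884). Kcnj9, Kcns2 and Kcnd2 lost theirs without 6, 9 and 10 of the 12 single libraries (adjusted p up to 0.18).

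**Figure D5:**
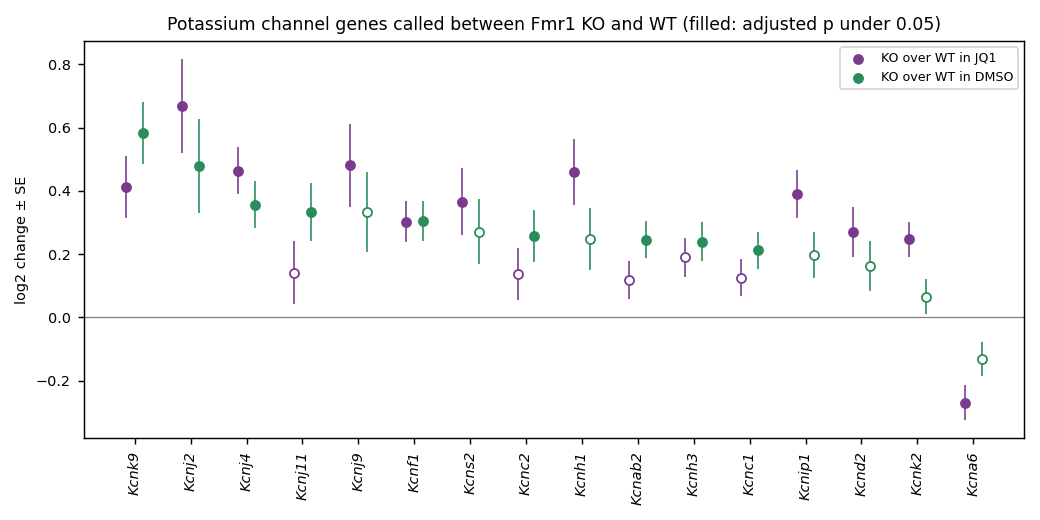
Log2 change in KO against WT for 16 potassium channel genes called in JQ1 or in DMSO, with bars for standard errors and filled points for an adjusted p under 0.05. Kcnk9, Kcnj2, Kcnj4 and Kcnf1 are filled in both conditions, and Kcna6 is the gene below 0 in JQ1. With spike-in scaling the 10 genes called in DMSO were at log2 changes of -0.21 (Kcnk9) or lower, and those of them shown were not called.

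The count of genotype calls leaned on single libraries, among all genes too. In DMSO it was 4 and 5 without KO_DMSO replicates 1 and 2, and 6, 4 and 5 without WT_DMSO replicates 1, 2 and 3. In these fits 885, 1262, 1176, 1142 and 1282 of all genes were called, against 2311 with every library. Without KO_DMSO replicate 3 the count was 11, with 2540 of all genes. In JQ1, 4 calls were left on omitting KO_JQ1 replicate 1, and 7, 6 and 7 on omitting WT_JQ1 replicates 1, 2 and 3. Of all genes, 603, 551, 534 and 1227 were then called, against 1385 with every library. Without KO_JQ1 replicates 2 and 3 in turn the counts were 9 and 13, with 823 and 2027 of all genes. Without both KO replicate 3 libraries, which stand apart in sex-linked genes, the counts were 15 in JQ1 and 11 in DMSO. Kcnc2 and Kcnj2 were no longer called in DMSO. Of all genes, 2469 were called between genotypes in JQ1 and 3167 in DMSO in that fit. There JQ1 gave 37 calls in KO and 40 in WT, with 7930 and 8974 of all genes. The fit of every library called 8817 and 8507 of all genes for JQ1 in KO and WT.

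Markers of several cell types also differed between the genotypes. Inhibitory neuron markers summed to 529 to 635 CPM in KO against 384 to 582 CPM in WT in JQ1, and to 579 to 643 CPM in KO against 421 to 524 CPM in WT in DMSO, with 2 of 8 and 5 of 8 higher. Kv3 channels are known for their place in fast-spiking inhibitory neurons. General neuronal markers summed to 5762 to 6203 CPM in KO against 5459 to 5568 CPM in WT in JQ1, and to 6455 to 6826 CPM in KO against 5809 to 6246 CPM in WT in DMSO, with 1 of 5 and 3 of 5 higher. Astrocyte markers summed to 306 to 501 CPM in KO against 491 to 660 CPM in WT in JQ1, and to 472 to 637 CPM in KO against 676 to 808 CPM in WT in DMSO, with 1 of 8 and 2 of 8 lower. Progenitor markers summed to 304 to 392 CPM in KO against 448 to 513 CPM in WT in JQ1, and to 375 to 448 CPM in KO against 458 to 495 CPM in WT in DMSO, with 4 of 8 and 2 of 8 lower. Their part in the differences of potassium channel genes was not tested.

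Potassium channel genes whose channel or mRNA has been tied to FMRP numbered 7, all tested. In JQ1 against DMSO, 4 of 7 fell in each genotype, against 29.4% of all genes in KO and 29.3% in WT: Kcna2, Kcnd2, Kcnn2 and Kcnt1. In KO against WT, 1 of 7 was higher in JQ1 (Kcnd2) and 1 in DMSO (Kcnc1), with median log2 changes of 0.09 and 0.12. That is 14.3% in each condition, against 8.97% of all genes called in JQ1 and 15% in DMSO. Kcnd2, whose mRNA FMRP binds, was 66.0, 50.7 and 55.0 CPM in KO against 47.7, 47.4 and 46.8 CPM in WT in JQ1, and 67.3, 61.8 and 67.0 CPM in KO against 61.2, 54.3 and 59.7 CPM in WT in DMSO. The libraries did not overlap in either condition, and the call in DMSO was missed (log2 0.16, adjusted p = 0.172). Its fall in JQ1 was 0.19 in KO (adjusted p = 0.0459) and 0.30 in WT (adjusted p = 0.00496), and the call in KO was lost without 8 of the 12 single libraries (adjusted p up to 0.228).

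Kcnmb4, the neuronal BK beta subunit whose protein binds FMRP, was 6.97, 7.56 and 6.82 CPM in KO against 7.63, 7.83 and 8.12 CPM in WT in JQ1, and 6.25, 6.53 and 6.44 CPM in KO against 7.44, 7.55 and 7.43 CPM in WT in DMSO. KO libraries were below WT libraries in each condition, and neither difference was called (log2 -0.13, adjusted p = 0.255 in JQ1, and -0.22, adjusted p = 0.0525 in DMSO). Kcnt1, whose Slack protein binds FMRP, had genotype log2 changes of 0.04 in JQ1 and 0.12 in DMSO, Kcnma1 of 0.09 and 0.12, Kcnn2 of -0.02 and 0.01 and Kcna2 of 0.10 and 0.07, none of them called. Kcna2 fell in JQ1 by 0.50 in KO and 0.53 in WT. Its call was lost in KO without KO_DMSO replicate 1 or 2 or KO_JQ1 replicate 3 (adjusted p up to 0.125), and in WT without WT_DMSO replicate 2 or 3 or WT_JQ1 replicate 1 or 3 (adjusted p up to 0.167).

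Of the partner genes, 2 were higher in KO in JQ1, Dlg4 (log2 0.20, adjusted p = 0.0199) and Lrrc55 (log2 0.24, adjusted p = 0.0226). In DMSO 3 were higher, Dlg4 (log2 0.26, adjusted p = 0.00432), Dpp6 (log2 0.17, adjusted p = 0.0368) and Adam23 (log2 0.15, adjusted p = 0.0418). Of the 20 tested partners this was 10% in JQ1 and 15% in DMSO, against 4.85% and 7.21% of all genes. Dlg4 encodes the synaptic scaffold that clusters Kv1 and inward rectifier channels. The authors' deposited table of KO against WT lists 94 of the 96 potassium channel rows, of which 62 have an adjusted p, and 15 are higher and 2 lower in KO under 0.05. All 10 genes called here in DMSO are among the 15, as are Kcnj9, Kcnh1, Kcnip1 and Kcnd2, called here in JQ1 alone. That table belongs to the same series, so it is not separate evidence. Its log2 changes come from DESeq2 of unstated version and may be estimated otherwise than those of edgeR. The 2 lower ones in the authors' deposited table are Kcnab1 (log2 -0.41, adjusted p = 0.00181) and Kcnv1 (log2 -0.20, adjusted p = 0.013), which were not called here (log2 -0.56 and -0.23, adjusted p = 0.0798 and 0.0931 by edgeR).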

How the data were processed

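RNA was purified with RNeasy columns, made into libraries with a TruSeq RNA kit and read as 75-base single reads, per the labels' protocols. Per the submitters' processing notes, TopHat2 2.1.0, SAMtools 0.1.19 and HTSeq 0.6.1 were used with the mm9 build. The authors deposited raw counts per Ensembl gene for 12 of 18 labelled samples. The labels name neither counting mode nor strand setting, which leaves overlapping and antisense genes uncertain. The authors' deposited table of KO against WT gives a log2 fold change and an adjusted p-value per gene, and was used in no test.

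Tests used edgeR 4.0.16 in R 4.3.3 (filterByExpr at a minimum count of 10, TMM scaling, 1 mean per group over 12 libraries, quasi-likelihood F tests of 5 comparisons, Benjamini-Hochberg over 15433 genes, calls at an adjusted p under 0.05). ERCC rows stayed out of library sizes. Levels per kb used exon lengths of GENCODE M21 on GRCm38, matched by Ensembl identifier for 93 of 96 rows, so lengths come from another build than the counts. Between replicates, chi-square over degrees of freedom was 4.77 to 40.9, above counting error.

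The members, the subfamily, FMRP and partner lists and the tests were chosen with earlier results of these data known. Named genes were up to 10 rising and 10 falling called genes by size (for JQ1, those called in WT at a mean of at least 1 CPM), the FMRP list, and up to 4 called genes of smallest adjusted p per list. Some genes that this rule takes are not reported here by name, and the counts include them. Genes set beside these as relatives, or because a count or a lost call concerned them, were chosen after their values were seen. Deviations of libraries with the same replicate number correlated at 0.21 to 0.29 for JQ1 against DMSO in KO, 0.094 to 0.16 in WT, and -0.18 to 0.12 between genotypes, so the numbers pair libraries in the first comparison. The reported fit did not use that pairing, and the replicate block below did. Alternatives were DESeq2 1.42.0, no filter, spike-in scaling, a fit of the groups compared alone, a replicate block, each library left out, and both KO replicate 3 libraries left out.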

Additional observations from a re-analysis of the deposited data

How the results depend on the processing

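The counts of potassium channel genes called with JQ1 kept within 1.5 times of the reported 48 in KO and 40 in WT under DESeq2 (46 and 40), no filter (52 and 46), a fit of the groups compared alone (43 and 43) and omission of single libraries (40 to 49 and 37 to 43), and the difference of responses stayed at 0 in those run for it, which leave out the fit of the groups compared alone. Of all genes, JQ1 calls were 8498 in KO and 8256 in WT under DESeq2, and 8949 and 8749 without a filter. The groups compared alone gave 8036 and 8457, and omission of single libraries 7807 to 9028 and 7563 to 8889. For KO against WT, leaving out single libraries gave 4 to 13 calls in JQ1 and 4 to 12 in DMSO. The groups compared alone gave 7 in JQ1. Calls among all genes there were 534 to 2027 in JQ1 and 885 to 2764 in DMSO, and 630 in JQ1 for the groups compared alone. With the replicate number as a block, 53 and 47 genes were called for JQ1 in KO and WT. For genotype, 14 and 13 were called in JQ1 and DMSO. These included all calls of the reported fit. Of all genes, that block called 9690 and 9292 for JQ1, and 1953 and 2789 for genotype. Spike-in scaling gave 11 calls for JQ1 in KO, and 0 in JQ1 and 47 in DMSO for genotype. For KO against WT in DMSO it moved the median of all genes by -0.809 on the log2 scale and called 11990 of 15433 genes lower, and beside that shift the log2 changes that it turned round were -0.57 for Kcnab2, -0.56 for Kcnc2, -0.21 for Kcnk9, -0.57 for Kcnh3, -0.66 for Kcna2, -0.38 for Kcnj2, -0.46 for Kcnj4, -0.52 for Kcnf1, -0.83 for Kcnn2, -0.73 for Kcnt1, -0.59 for Kcnc1, -0.66 for Kcnd2 and -0.49 for Kcnj11. Each of these genes had a log2 change of at most 0.58 in the reported fit, less than the size of that shift. Under spike-in scaling Kcna2, Kcnn2, Kcnt1 and Kcnd2 were called lower, and the others listed were not called. Genes near 1 CPM, such as Kcna5 and Kcnh8, rest on few counts in the shallowest library.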
